A study of Mus musculus with 400 samples.

Results

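Gap43, Basp1, Stmn2, Stmn4, Sox11, Atf3, Flrt3 and Sprr1a are 8 genes known for axon growth and for the response of a neuron to nerve injury. The 8 were taken by symbol, as a fixed list, from 24754 gene entries measured in single sensory neurons. The cells came from dorsal root ganglia (DRG) of spinal levels C1 to C8 of 6 naive mice, aged between 6 and 12 weeks. The mice carried Nav1.8-Cre and R26CAG-floxStop-tdTomato, and the strain is labelled Nav1.8-Cre.Ai14. In such mice Cre follows the sodium channel gene Scn10a, and a cell or its precursor that once made Cre keeps the red reporter for life, so the sorted cells are a lineage and not a state. No mouse was injured or treated, and all 6 shared this genotype, so every comparison below sets classes of cells against each other within the same mice.

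tdTomato+ cells were sorted one by one from enzyme-digested ganglia, frozen and sequenced in 4 runs. Run 1 held the mice labelled Blue and Red, run 2 Control, run 3 Control1 and Control2, and run 4 Control6. The mouse was the replicate. Of 394 cells with a column, 371 with at least 500 detected genes were kept, with a median of 30366 counts (range 918 to 324984). Values are CPM, the value of a gene divided by the total of its cell on a common scale. Cells were gated by 6 rules. The Mrgprd gate (Mrgprd of at least 200 CPM, a receptor of non-peptidergic skin neurons) held 30.5% of the kept cells, the most of any gate, and the Mrgpra3 gate (at least 50 CPM, an itch receptor) held 47 cells. The Sst or Nppb gate (either peptide gene at 100 CPM or more, itch neurons) held 46 cells, and the Th gate (tyrosine hydroxylase at 100 CPM or more, touch neurons of low threshold) held 39. The gate on Calca with Tac1 (at least 2000 and 1000 CPM, the genes of the neuropeptides CGRP and substance P) held 86 cells, and the Nefh gate (at least 500 CPM, heavy neurofilament of myelinated neurons) held 26. In all, 329 cells passed 1 gate, 14 passed 2 and 28 passed none. A gate entered with a mouse only where the mouse gave at least 3 cells, which left 6 mice for Mrgprd and for Calca with Tac1, 5 for Sst or Nppb, 3 each for Mrgpra3 and Nefh, and 2 for Th. Neuronal markers such as Snap25 and Uchl1 summed to a mean between 7357 and 8177 CPM in the 6 gates. Markers of satellite glia, the cells that wrap sensory neurons, summed to a mean of 4622 CPM in Nefh-gated cells (mice 1094 to 5998) and to means between 649 and 1634 CPM in the other 5 gates. Whether this glial RNA plays a part in the Nefh results was not tested, since only 4 of the 26 Nefh-gated cells had less than 1000 CPM of it.

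A sensory neuron whose peripheral axon is cut switches on a growth program. Transcription factors such as Atf3 and Sox11 rise, and proteins of the growing tip follow. Gap43 and Basp1 encode related membrane-bound proteins of the growth cone, which shape the actin cortex beneath the membrane. Stathmins such as Stmn2 and Stmn4 bind tubulin and regulate microtubule growth. Flrt3 encodes a leucine-rich repeat adhesion protein linked to neurite outgrowth, and Sprr1a, best known as a protein of the skin barrier, appears in injured sensory neurons and promotes their outgrowth. In uninjured ganglia some of these genes stay on in part of the neurons.

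In these uninjured mice the members did not move as one group. Gap43 was high in the cells gated by Calca with Tac1, by Nefh and by Mrgpra3, and Stmn4 in those gated by Calca with Tac1 and by Nefh. Basp1 was high in the same gates as Gap43 and also in Mrgprd-gated cells, Flrt3 stood highest in Mrgprd-gated cells, and Sst- or Nppb-gated cells were low for Gap43, Basp1, Sox11 and Flrt3. Th-gated cells, from 2 mice, were also low for Gap43, Basp1 and Flrt3. Stmn2 was abundant in all gates, and Sprr1a was nearly absent.

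**Figure D1:**
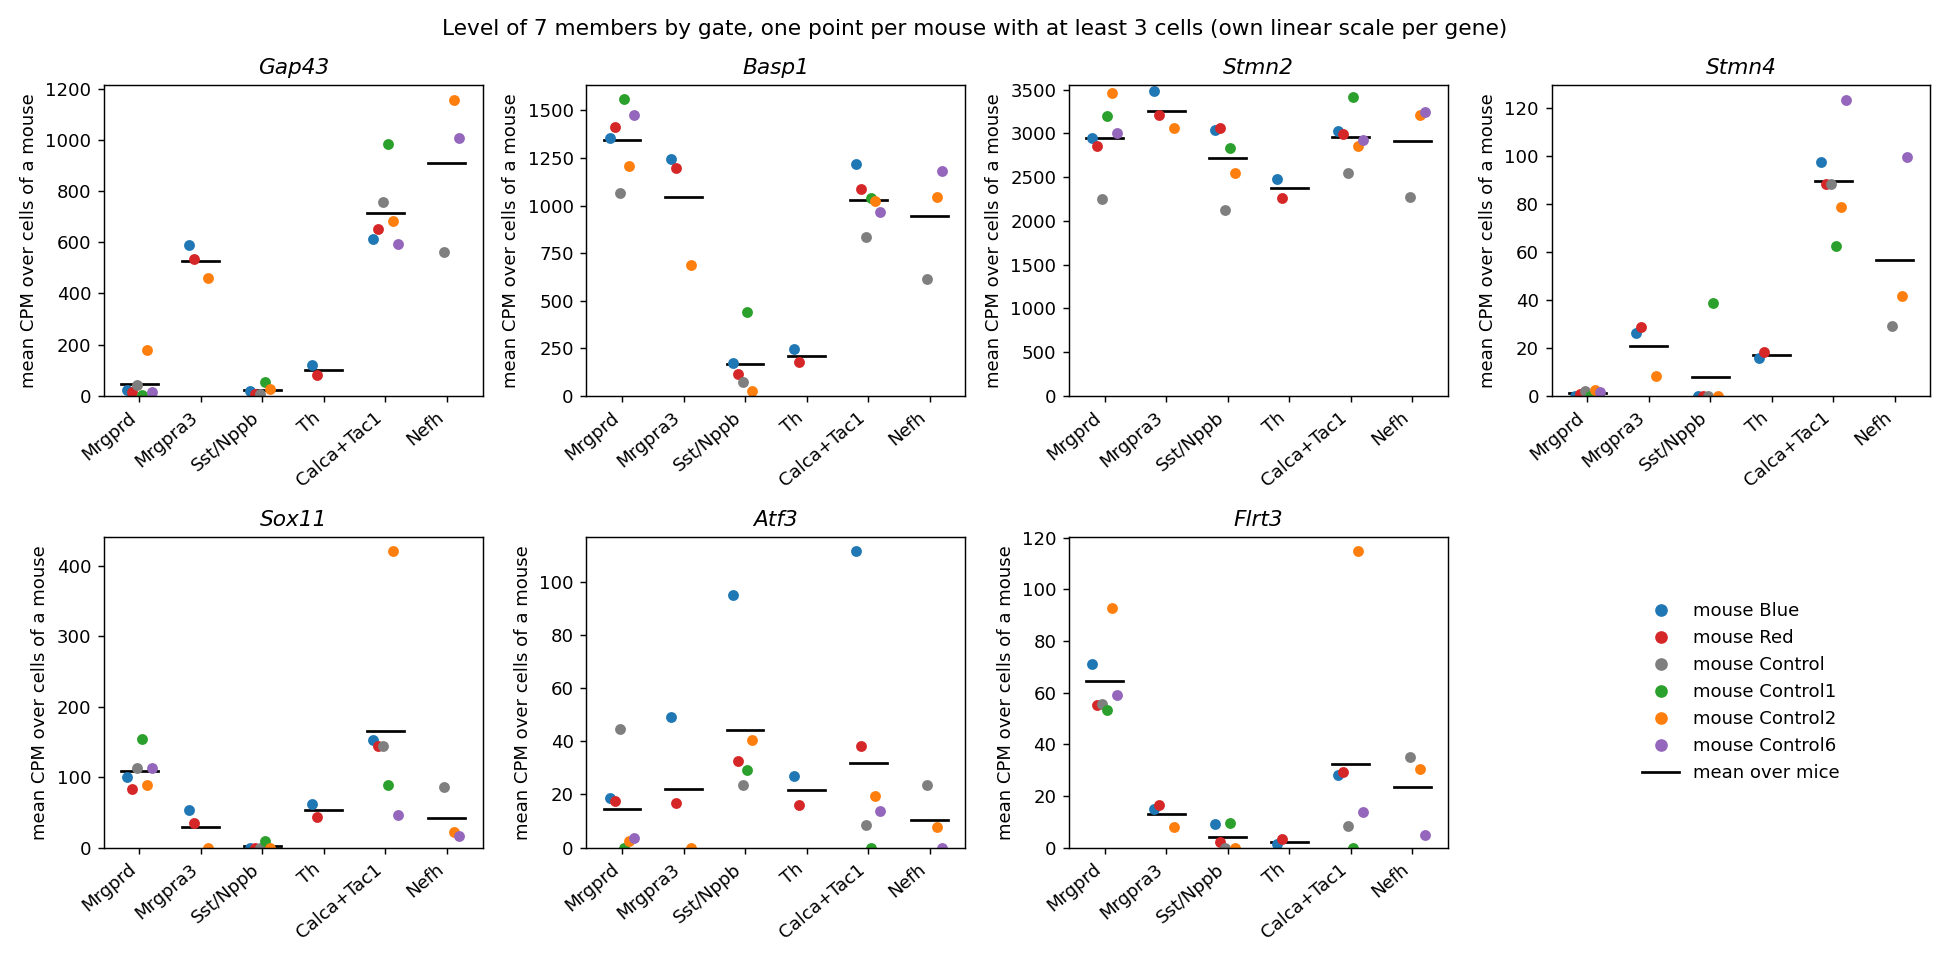
Mean CPM of 7 members (vertical axes, linear, from 0, one scale per gene) in each of the 6 gates (horizontal axis), with 1 point per mouse and a line at the mean over mice. Gap43 lies between 459 and 1157 CPM in the Mrgpra3, Calca with Tac1 and Nefh gates and between 3.81 and 178 CPM in the other 3 gates.

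Gap43 (chr16:42248442-42340651, minus strand; gene positions are from GENCODE vM21 on GRCm38, the mm10 assembly) divided the gates into high and low ones. In cells gated by Calca with Tac1 the mouse means ran from 591 to 983 CPM with a median of 669 (6 mice). In Nefh-gated cells they were 562 CPM in Control, 1157 in Control2 and 1009 in Control6, and in Mrgpra3-gated cells 591 CPM in Blue, 534 in Red and 459 in Control2. In Mrgprd-gated cells the mouse means ran from 3.81 to 178 CPM with a median of 19.7 (6 mice). The 3 high gates overlapped none of the others in any mouse. Sst- or Nppb-gated cells had 19.3 CPM in Blue, 8.49 in Red, 53.4 in Control1, 27.04 in Control2 and 8.12 in Control, all within the range of the Mrgprd mice. The top of that range, Control2, rested on 1 cell. The next highest Mrgprd mouse was Control at 40.7 CPM, below the 53.4 CPM of Control1. Gap43 was detected in 86 of 86 cells gated by Calca with Tac1 and in 46 of 47 Mrgpra3-gated cells, but in 41.6% of Mrgprd-gated cells (47 cells) and in 12 of 46 Sst- or Nppb-gated cells. After every cell was thinned to 5000 counts, Gap43 was in 93.02% of cells gated by Calca with Tac1, 93.5% of Mrgpra3-gated, 9.01% of Mrgprd-gated and 13.3% of Sst- or Nppb-gated cells, so at equal depth the first 2 gates still stood far above the other 2.

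Against the other kept cells of the same mice, Gap43 was lower in Mrgprd-gated cells by a log2 difference of -3.88 (SE 0.36, limma adjusted p = 1.42e-06, lower in 6 of 6 mice) and in Sst- or Nppb-gated cells by -3.85 (SE 0.34, adjusted p = 9.73e-06, 5 of 5 mice). It was higher in cells gated by Calca with Tac1 by 1.79 (SE 0.24, adjusted p = 0.000171, 6 of 6 mice) and in Nefh-gated cells by 2.03 (SE 0.20, adjusted p = 2.40e-07, 3 of 3 mice). All log2 differences are of mean CPM + 5 per mouse, which understates the change of weakly expressed genes. The direct contrast of Calca with Tac1 against Mrgprd gave means of 714 ± 145 and 46.02 ± 65.8 CPM (SD, n = 6 each) and a difference of 4.53 (SE 0.43, adjusted p = 4.31e-06). In Mrgpra3-gated cells Gap43 averaged 528 CPM against 294 CPM in the other kept cells, a difference of 0.84 (SE 0.17) in 3 of 3 mice that did not pass the threshold (adjusted p = 0.0657). The other kept cells include the other gates, so these comparisons share cells and are not independent of each other.

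The level in Th-gated cells, 122.2 CPM in Blue and 81.05 CPM in Red, rested on few cells. Of 39 Th-gated cells, 34 passed no other gate, and 3 of these had any Gap43, with a mean of 4.41 CPM. The other 5 also passed the Nefh gate or the gate on Calca with Tac1, and all 5 had Gap43, with a mean of 908 CPM. In cells of the Th gate alone, the mouse means were 10.7 CPM in Blue (14 cells) and 0 in Red (14 cells). The difference of Th-gated from other kept cells was -1.73 (SE 0.14, 2 of 2 mice lower) with all Th-gated cells and -5.29 with cells in exactly 1 gate. Against Mrgprd-gated cells, Gap43 was higher in Th-gated cells by 2.10 (SE 0.23, 2 of 2 mice), but the difference was -0.10 when log values were averaged over cells, and 0.47 and past no threshold when cells with satellite glial RNA were left out. Among cells in exactly 1 gate, Mrgprd-gated cells had 13.6 CPM in Blue and 10.9 in Red, above the Th values. Gap43 then averaged under the filter of 10 CPM, so that difference was not fitted. In Mrgprd-gated cells the highest mouse, Control2, also rested on 1 cell: its mean was 178 CPM over 9 cells and 13.4 CPM without the highest cell, which had 1495 CPM (71 counts). Without Control2 the mean over mice was 19.6 CPM.

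**Figure D2:**
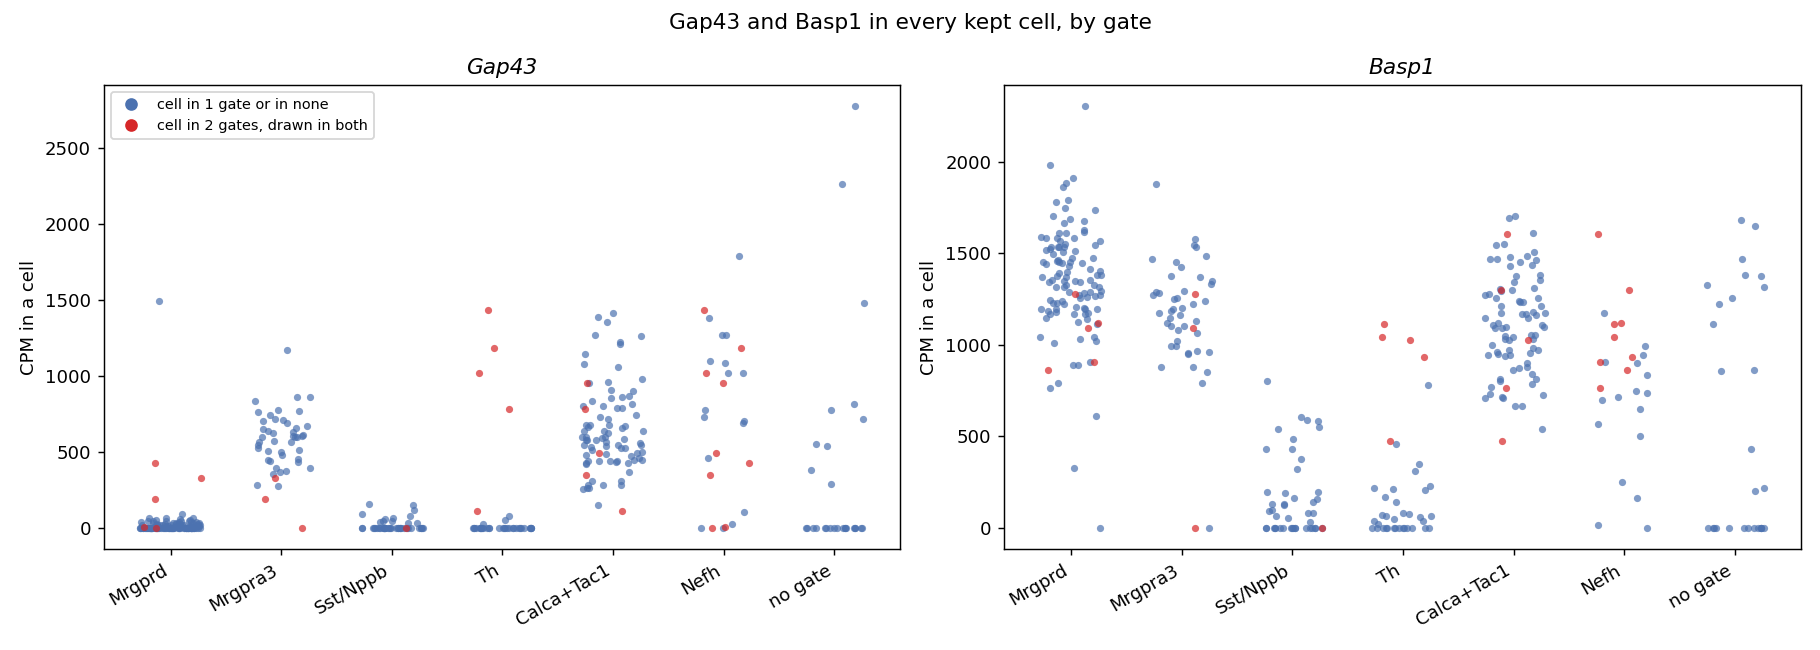
Gap43 (left) and Basp1 (right) in CPM (vertical axes) in each of 371 kept cells, by gate (horizontal axis), with cells that pass 2 gates in red and drawn in both. In the Th gate the 5 cells with the most Gap43 are red, and the 2 highest Gap43 values of all, 2776 and 2266 CPM, lie in cells of no gate.

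Basp1 (chr15:25363277-25413764, minus strand), the partner of Gap43 in function, did not follow Gap43 across gates. Mouse means ran from 1066 to 1557 CPM in Mrgprd-gated cells (median 1384, 6 mice) and from 836 to 1220 CPM in cells gated by Calca with Tac1 (median 1034, 6 mice). Mrgpra3-gated cells had 1247 CPM in Blue, 1199 in Red and 687 in Control2, and Nefh-gated cells 613 CPM in Control, 1045 in Control2 and 1180 in Control6. Th-gated cells had 245 CPM in Blue and 178 in Red. These 2 values lie below every mouse of the 4 gates above. They too drew on the 4 Th-gated cells of Blue and Red that passed a further gate, which had 473 to 1114 CPM of Basp1, and in cells of the Th gate alone Basp1 was 132 CPM in Blue and 89.8 in Red. Sst- or Nppb-gated cells had 173 CPM in Blue, 112.7 in Red, 443 in Control1, 27.04 in Control2 and 72.01 in Control, so only Control1 lay above the Th values. Among Mrgprd-gated cells, 65 had Basp1 without Gap43, 47 had both and 1 had neither. Of 86 cells gated by Calca with Tac1, all 86 had both.

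Against other kept cells Basp1 was higher in Mrgprd-gated cells, at 1346 ± 181 against 683 ± 137 CPM (SD, n = 6 mice), a log2 difference of 0.99 (SE 0.083, adjusted p = 4.96e-07, 6 of 6 mice). It was lower in Sst- or Nppb-gated cells, at 165 ± 164 against 1015 ± 189 CPM (n = 5 mice), a difference of -3.09 (SE 0.35, adjusted p = 6.25e-05, 5 of 5 mice). Control1 was the highest of these mice, and the mean was 96.1 CPM without it. In Th-gated cells Basp1 was lower by -2.31 (SE 0.10) than in other kept cells and by -2.70 (SE 0.11) than in Mrgprd-gated cells, in 2 of 2 mice each. Between the 2 gates with the largest number of cells, Basp1 was lower in cells gated by Calca with Tac1 than in Mrgprd-gated cells by -0.38 (SE 0.093, adjusted p = 0.00932, 6 of 6 mice), although the ranges of the mice overlapped. That call was lost in 5 of 19 alternatives, in which the difference lay between -0.44 and -0.32.

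Stmn4 (chr14:66344296-66361680, plus strand) had a pattern near that of Gap43, at lower counts. Cells gated by Calca with Tac1 had mouse means from 62.4 to 123.6 CPM (median 88.5, 6 mice). Nefh-gated cells had 29.2 CPM in Control, 41.6 in Control2 and 99.6 in Control6, and Mrgpra3-gated cells 26.1 CPM in Blue, 28.7 in Red and 8.23 in Control2. Mrgprd-gated cells had at most 2.34 CPM in any of 6 mice. No mouse of the gate on Calca with Tac1 came near any mouse of the Mrgprd gate. Stmn4 was found in 66 of 86 cells gated by Calca with Tac1, with 151 counts in all, and in 5 Mrgprd-gated cells, with 7 counts.

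Stmn4 was higher in cells gated by Calca with Tac1 than in other kept cells, at 89.9 ± 20.4 against 11.4 ± 3.22 CPM (SD, n = 6 mice), a log2 difference of 2.52 (SE 0.28, adjusted p = 4.53e-05, 6 of 6 mice), and higher than in Mrgprd-gated cells by 3.95 (SE 0.33, adjusted p = 1.38e-06). In Mrgprd-gated cells it was lower than in other kept cells by -2.84 (SE 0.27, adjusted p = 1.51e-06, 6 of 6 mice). After cells were thinned to 5000 counts the difference for Calca with Tac1 against other kept cells was 1.82 and no longer past the threshold. In Nefh-gated cells Stmn4 was higher by 1.47 (SE 0.46, adjusted p = 0.0486, 3 of 3 mice), a call that was lost when any of the 3 mice was left out (1.11 to 1.70). In Th-gated cells it had 15.7 CPM in Blue and 18.4 in Red (mean 17.04), against a mean of 39.4 CPM in other kept cells, a difference of -1.01 (SE 0.29, 2 of 2 mice lower). In Sst- or Nppb-gated cells it was at 0 in 4 of 5 mice, and the 38.8 CPM of Control1 came from 4 counts in 1 cell.

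Stmn2 (chr3:8509360-8561606, plus strand), a stathmin that maintains axons, was detected in 342 of 343 gated cells. Its mean over mice was 3254 ± 213 CPM in Mrgpra3-gated cells (SD, n = 3), 2962 ± 281 in cells gated by Calca with Tac1 (n = 6), 2952 ± 407 in Mrgprd-gated cells (n = 6), 2907 ± 550 in Nefh-gated cells (n = 3), 2718 ± 390 in Sst- or Nppb-gated cells (n = 5) and 2371 ± 155 in Th-gated cells (n = 2). The mice of each gate overlapped those of the next in this order. The only comparisons in which Stmn2 passed the threshold were those of Th-gated cells, at -0.37 (SE 0.070) against other kept cells and -0.29 (SE 0.069) against Mrgprd-gated cells. Mouse Control was the lowest in each gate it entered, with 2099 CPM over its 50 cells against 2921 to 3103 CPM in the other 5 mice.

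Sox11 (chr12:27334264-27342574, minus strand), a transcription factor of embryonic neurons that returns after axon injury, was present in most classes and almost missing from one. Mouse means ran from 83.8 to 154 CPM in Mrgprd-gated cells (median 106.98, 6 mice) and from 45.9 to 420 CPM in cells gated by Calca with Tac1 (median 144, 6 mice). Th-gated cells had 62.4 CPM in Blue and 44.04 in Red, Nefh-gated cells 85.6 CPM in Control, 22.5 in Control2 and 15.9 in Control6, and Mrgpra3-gated cells 53.3 CPM in Blue, 35.6 in Red and 0 in Control2. In Sst- or Nppb-gated cells 4 of 5 mice were at 0 and Control1 had 9.69 CPM. That value was 1 count in 1 of 46 cells, whereas 93.8% of Mrgprd-gated cells had Sox11. The median depth was 16933 counts in Sst- or Nppb-gated and 46149 in Mrgprd-gated cells. After thinning to 5000 counts Sox11 was in 0 of 45 Sst- or Nppb-gated cells, which allows a share of up to 6.67%, and in 37.8% of Mrgprd-gated cells.

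Sox11 was lower in Sst- or Nppb-gated cells than in other kept cells, at 1.94 ± 4.34 against 113.02 ± 25.4 CPM (SD, n = 5 mice), a log2 difference of -4.23 (SE 0.45, adjusted p = 3.77e-05, 5 of 5 mice). In Nefh-gated cells it was lower by -1.55 (SE 0.41, adjusted p = 0.0151, 3 of 3 mice), a call lost in 6 of 12 alternatives, among them the fit without Control2 (-1.05). The Nefh mean of 41.3 CPM was 19.2 CPM without Control. In Th-gated cells it was lower by -0.75 (SE 0.20) both against other kept cells and against Mrgprd-gated cells, in 2 of 2 mice. The difference of Mrgprd-gated cells was 0.56 (SE 0.28, adjusted p = 0.189), and it passed the threshold without Control2 (0.84), with edgeR (0.81) and DESeq2 (0.92), and when log values were averaged over cells (1.79). The difference of cells gated by Calca with Tac1 was 0.80 (SE 0.31, adjusted p = 0.125), and it passed without Control6 (1.08), in run 1 alone (1.17) and with edgeR (0.70). Between these 2 gates no direction held: the difference was 0.31 with all mice and -0.066 without Control2. The high mouse mean of Control2, 420 CPM over 4 cells, was 59.1 CPM without 1 cell, in which Sox11 had 10 counts.

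Flrt3 (chr2:140650914-140671469, minus strand) was the one member that stood highest in Mrgprd-gated cells besides Basp1. Its mouse means there ran from 53.4 to 92.8 CPM (median 57.5, 6 mice). In cells gated by Calca with Tac1 they ran from 0 to 114.6 CPM (median 20.9, 6 mice), in Mrgpra3-gated cells they were 14.8 CPM in Blue, 16.4 in Red and 7.84 in Control2, and in Nefh-gated cells 34.9 CPM in Control, 30.4 in Control2 and 4.80 in Control6. Control2 alone put the gate on Calca with Tac1 in the range of the Mrgprd gate, with 114.6 CPM over 4 cells, and the mean over mice of 32.4 CPM was 15.9 CPM without it. Th-gated cells had 1.53 CPM in Blue and 3.15 in Red. Sst- or Nppb-gated cells had 9.19 CPM in Blue, 2.34 in Red, 9.69 in Control1, 0 in Control2 and 0 in Control. Flrt3 was found in 84.1% of Mrgprd-gated cells, in 5 of 39 Th-gated cells and in 6 of 46 Sst- or Nppb-gated cells.

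Flrt3 was higher in Mrgprd-gated cells than in other kept cells, at 64.6 ± 15.2 against 20.4 ± 13.4 CPM (SD, n = 6 mice), a log2 difference of 1.61 (SE 0.24, adjusted p = 0.000116, 6 of 6 mice), which was 1.59 and not past the threshold after thinning to 5000 counts. It was lower in Sst- or Nppb-gated cells by -2.41 (SE 0.52, adjusted p = 0.00745, 5 of 5 mice), a call lost in the mice of runs 2 to 4 (-2.69), with no filter on low values (-2.41) and without the cells that carried satellite glial RNA (-1.62). In Th-gated cells it was lower by -2.48 (SE 0.37) than in other kept cells and by -3.21 (SE 0.33) than in Mrgprd-gated cells, in 2 of 2 mice each. In cells gated by Calca with Tac1 it was lower than in Mrgprd-gated cells by -1.54 (SE 0.42, adjusted p = 0.0188, 5 of 6 mice), and this call was lost in 8 of 19 alternatives, among them the fit without Control (-1.41).

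**Figure D3:**
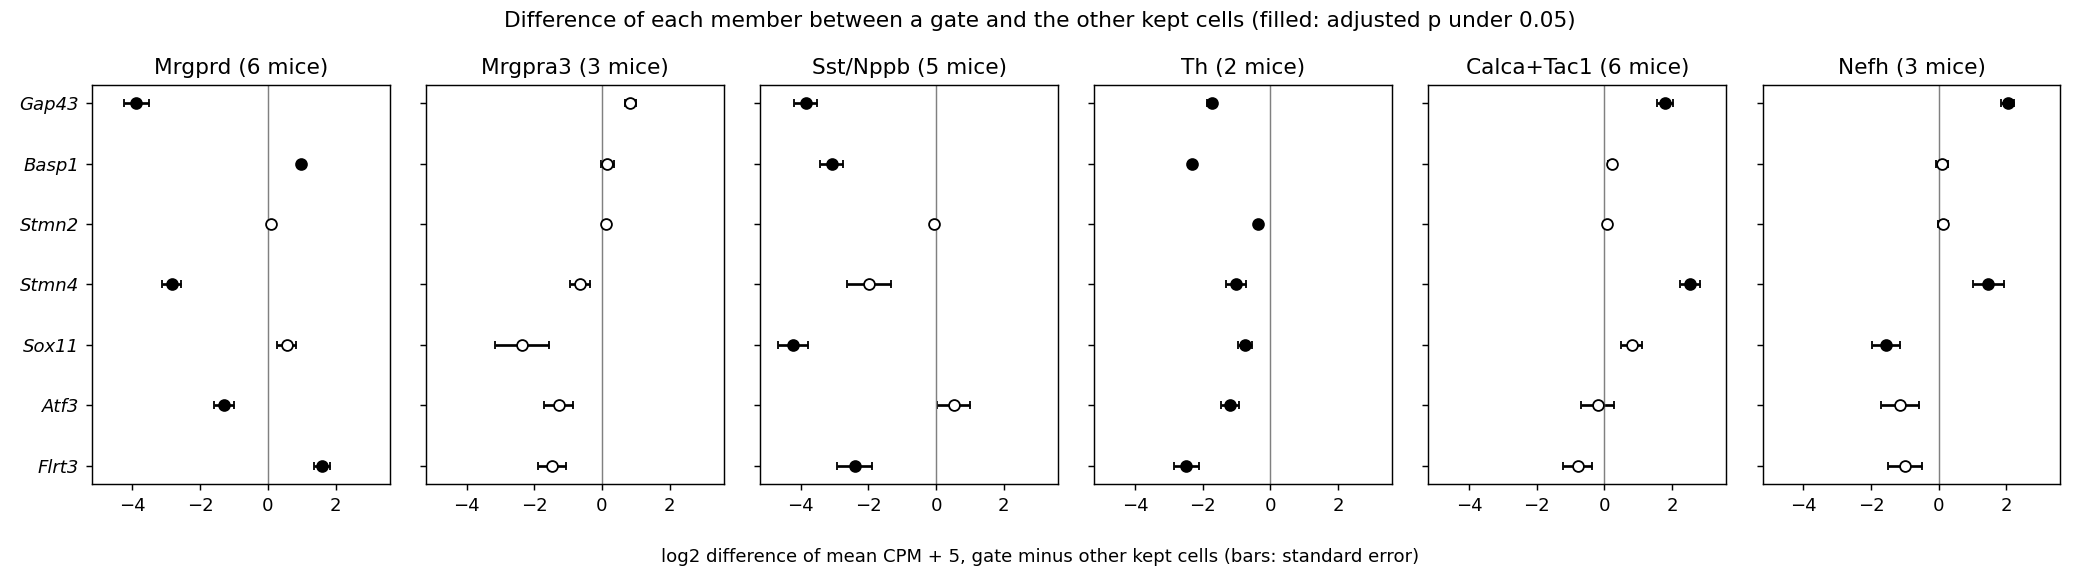
Log2 difference of mean CPM + 5 between each gate and the other kept cells of the same mice (horizontal axes), for 7 members (rows) and 6 gates (panels), with the standard error and filled symbols at an adjusted p under 0.05. Basp1 and Flrt3 lie right of 0 in the Mrgprd panel and left of 0 in the Sst/Nppb and Th panels, and no symbol is filled in the Mrgpra3 panel.

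Counted together, 5 of 7 tested members passed the threshold in Mrgprd-gated cells against other kept cells (Basp1 and Flrt3 higher, Gap43, Stmn4 and Atf3 lower), where 22% of 9058 tested genes passed. In Sst- or Nppb-gated cells 4 of 7 passed, all lower, against 11.9% of 9030 genes. The median difference of the 7 was -2.41 there, and that of all tested genes -0.20. In cells gated by Calca with Tac1 2 of 7 passed, both higher, against 11.5% of 9209 genes, and in Nefh-gated cells 3 of 7 passed (Gap43 and Stmn4 higher, Sox11 lower), against 8.79% of 9277 genes. In Mrgpra3-gated cells 0 of 7 passed by limma, 4 had an unadjusted p under 0.05, and edgeR and DESeq2 each called 3 (Gap43 higher, Sox11 and Flrt3 lower), while 3.56% of 8957 genes passed. That count was 6 in the 2 mice left without Control2, whose Mrgpra3 gate held 3 cells. In Th-gated cells 7 of 7 passed, all lower, where 28.7% of 9078 genes passed, and 4 did after thinning or with DESeq2. Against Mrgprd-gated cells, 4 of 7 passed in cells gated by Calca with Tac1 (Gap43 and Stmn4 higher, Basp1 and Flrt3 lower; 19.6% of 9068 genes) and 5 of 6 in Th-gated cells (Gap43 higher, Basp1, Stmn2, Sox11 and Flrt3 lower; 29.5% of 8836 genes). The Gap43 call of Th against Mrgprd rested on Th-gated cells that also passed a further gate. Among cells in exactly 1 gate, Gap43 was lower in Th-gated cells in both Blue and Red. All p-values of Th-gated cells rest on 2 mice of run 1 and on a spread shared across genes, and they are not printed for that reason: an exact test by sign flips over 2 mice cannot go below p = 0.5. The 8 Schwann cell markers summed to 2640 CPM on average over Th-gated cells (mouse means 2633 and 2758), with 6 of the 8 at 1 CPM or more, and to means between 486 and 1386 CPM in the other gates. Their part in the Th results was not tested. With 6 mice the smallest exact two-sided p is 0.03125, which was reached for Gap43, Stmn4, Flrt3, Atf3 and Basp1 in the Mrgprd gate and for Gap43 and Stmn4 in the gate on Calca with Tac1.

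Atf3 (chr1:191170296-191218039, minus strand), a transcription factor that is a standard mark of injured sensory neurons, differed between mice as well as between gates. Which of these spreads is larger was not tested. Over all kept cells of a mouse it averaged 63.3 CPM in Blue, 62.8 in Control, 38.9 in Red, 17.6 in Control2, 7.98 in Control1 and 3.69 in Control6. It was found in 61.1% of cells of Blue (95% interval 52.02 to 69.7), 45.3% of Red (36.5 to 54.3), 32% of Control (19.5 to 46.7), 21.7% of Control2 (7.46 to 43.7), 12% of Control6 (2.55 to 31.2) and 10.5% of Control1 (1.30 to 33.1). Blue stood above the 4 mice of the other runs, and its interval overlapped that of Red, the other mouse of run 1. Thinned to 5000 counts, the shares were 24.6% in Blue, 8.70% in Control2, 7.81% in Red, 5.56% in Control1, 2.44% in Control and 0 in Control6, so Blue stayed highest. Over gates the thinned shares ran from 2.56% (Th) to 22.2% (Sst or Nppb). The 2 highest cells of Control, at 1765 and 652 CPM, were shallow and had 3 and 2 counts of Atf3. All 6 mice were of 1 condition, so no test was made between them. The intervals are exact Clopper-Pearson and cover counting error only.

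The sum of 17 immediate early and stress genes, such as Fos, Junb and Hspa5, averaged 1662 CPM in Control, 1456 in Blue, 1368 in Control2, 1322 in Red, 1171 in Control6 and 1153 in Control1. Genes of this list, named after their values were seen, differed in which mouse was highest. Junb was highest in Blue (131 CPM), Fos (156), Fosb (99.7), Egr1 (122.7) and Hspa5 (456) in Control, and Jund (212) in Control2. Cells had been dissociated with enzymes before sorting. The part of dissociation, run or mouse in the Atf3 level was not tested, and run and mouse cannot be told apart in runs 2 and 4, which held 1 mouse each.

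**Figure D4:**
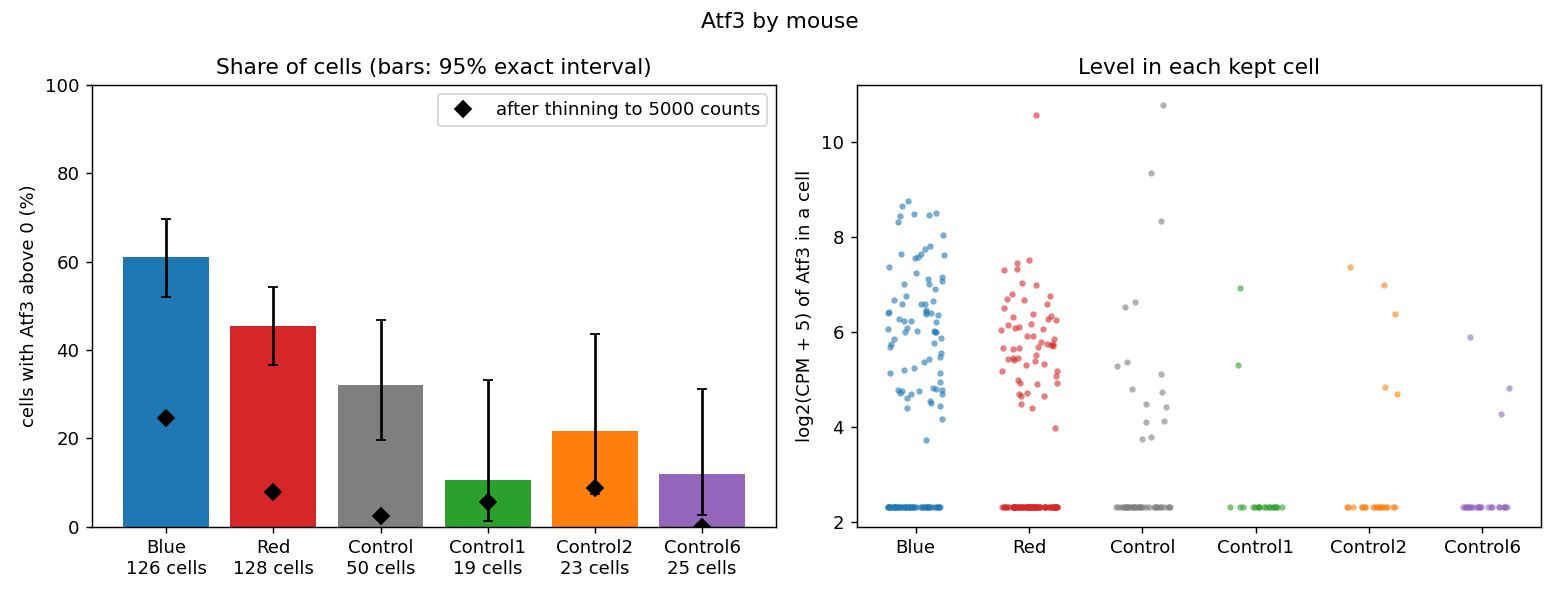
Left, share of kept cells with Atf3 above 0 (vertical axis, %) in each of the 6 mice with 95% exact intervals, and the share after thinning to 5000 counts (diamonds). Right, log2(CPM + 5) of Atf3 in each cell; the share runs from 61.1% in Blue to 10.5% in Control1.

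Among gates, Atf3 had its highest mean in Sst- or Nppb-gated cells, with 94.97 CPM in Blue, 32.5 in Red, 29.3 in Control1, 40.6 in Control2 and 23.5 in Control. No mouse of that gate was at 0. In cells gated by Calca with Tac1 it ran from 0 to 111.4 CPM (median 16.6, 6 mice), and Mrgpra3-gated cells had 49.1 CPM in Blue, 16.96 in Red and 0 in Control2. Th-gated cells had 26.9 CPM in Blue and 16.1 in Red (4.85 and 13.5 in cells of the Th gate alone), Mrgprd-gated cells ran from 0 to 44.7 CPM (median 10.4, 6 mice), and Nefh-gated cells had 23.5 CPM in Control, 7.94 in Control2 and 0 in Control6. All gates overlapped their neighbours in this order. Without Blue, the mean of the gate on Calca with Tac1 was 15.9 CPM in place of 31.9, and without Control the Mrgprd mean was 8.35 CPM in place of 14.4.

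In Mrgprd-gated cells Atf3 was lower than in other kept cells, at 14.4 ± 16.8 against 40.6 ± 30.9 CPM (SD, n = 6 mice), a log2 difference of -1.30 (SE 0.29, adjusted p = 0.00413, 6 of 6 mice). Cells in no gate weighed on the other side, and the difference was -0.90 and past no threshold without them. The call was also lost when log values were averaged over cells (-0.49), after thinning (-0.92), in the mice of runs 2 to 4 (-1.20) and without the replicate block (-1.30, limma adjusted p = 0.116). In Th-gated cells Atf3 was lower than in other kept cells by -1.18 (SE 0.26, 2 of 2 mice). In Sst- or Nppb-gated cells the difference was 0.51 (SE 0.49, adjusted p = 0.560), and edgeR and DESeq2 called it at 1.09 and 1.42.

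Sprr1a (chr3:92483952-92485895, minus strand) was found as 1 count in 1 of 371 kept cells. It was in 0 of 343 gated cells, which allows a share of up to 0.875% of cells with a count, and the gated cells together held 13165000 counts. No comparison tested it, because its mean stayed below the filter of 10 CPM. The cell with the count passed no gate, came from Blue and also carried Atf3.

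Atf3 and Sprr1a are the members best known as silent in intact neurons and induced by nerve injury. The 250 bases before their starts are shown because both hold a motif of the AP-1 and CREB families of transcription factors, to which Jun and Atf3 belong. The sequences are RefSeq promoters on GRCm38.p6, of which 5 of the 8 members had an entry. Capitals mark an AP-1 site (TGACTCA or TGAGTCA, bound by Jun and Fos family dimers) or a variant of the cyclic AMP response element (TTACGTCA or TGACGTAA), searched on both strands. The motifs were chosen after the sequences were read. The Atf3 window is chr1:191183334-191183583, the Sprr1a window chr3:92485882-92486131, both on the minus strand and printed 5′ to 3′. The Atf3 window precedes the start that RefSeq gives, which lies inside the longer GENCODE span of the gene printed above and not at its upstream end.
Atf3: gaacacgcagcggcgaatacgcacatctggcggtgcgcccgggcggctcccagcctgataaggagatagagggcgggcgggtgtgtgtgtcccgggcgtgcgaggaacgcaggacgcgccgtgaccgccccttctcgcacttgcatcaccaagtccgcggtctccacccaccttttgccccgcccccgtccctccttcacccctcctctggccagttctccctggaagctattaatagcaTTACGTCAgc
Sprr1a: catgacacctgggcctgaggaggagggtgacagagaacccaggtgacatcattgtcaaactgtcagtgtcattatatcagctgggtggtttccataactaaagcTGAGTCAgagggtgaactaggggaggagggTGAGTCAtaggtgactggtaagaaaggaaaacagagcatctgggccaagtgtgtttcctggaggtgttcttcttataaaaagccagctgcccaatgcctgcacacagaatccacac
The Sprr1a window holds the AP-1 letters at 2 places, 146 to 140 bases before the start and again nearer to it, and the Atf3 window holds the variant element 10 to 3 bases before the start. Of 32851 promoter windows of this length, 4.46% hold the AP-1 letters and 0.447% the variant element. The windows of Sox11, Flrt3 and Basp1 hold neither, nor does any of the 5 hold the full element TGACGTCA, which 1.55% of windows have. These matches describe letters and do not show binding.

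The 28 cells in no gate held the extremes of several members. Atf3 averaged 169 CPM over them, but its median was 14.4 CPM and it was found in 14 of the 28 cells. The highest value, 1765 CPM, was 3 counts in a cell of 1700 counts. 2 of these cells were high for several members at once and were chosen for description after their values were seen. One came from Red (22330 counts) and had 1523 CPM of Atf3, 2776 of Gap43, 672 of Stmn4, 6359 of Stmn2, 1075 of Sox11 and 448 of Flrt3. Among 371 cells it ranked 1 for Gap43, Stmn4 and Flrt3, and 2 for Stmn2, Sox11 and Atf3. The other came from Blue (7502 counts), held the 1 count of Sprr1a, and had 400 CPM of Atf3, 2266 of Gap43, 7065 of Stmn2, 267 of Stmn4, 267 of Sox11 and 267 of Flrt3. It ranked 1 for Stmn2 and 2 for Gap43, although its 267 CPM values were 2 counts each. Basp1 was not extreme in either, at 1679 and 1466 CPM (ranks 15 and 56).

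The genes that define the gates were low in both. The cell of Red had 44.8 CPM each of Calca and Tac1 and none of Mrgprd, Mrgpra3, Sst, Nppb, Th and Nefh. The cell of Blue had 267 CPM of Nefh and none of the other 7. Satellite glial markers summed to 269 and 400 CPM in them, and Scn10a had 269 and 133 CPM. Both had Ecel1, a protease gene induced in injured neurons, at 313 and 267 CPM, but 33.3% of its low values were not whole counts, so its reads may be shared with another gene. They had 0 CPM of the injury-induced peptide genes Gal and Npy. Most of the 11 cells with at least 300 CPM of Atf3 lacked this combination: 5 were Blue cells gated by Calca with Tac1, of which 1 also passed the Th gate, with 430 to 782 CPM of Gap43, and 3 were shallow cells of Control with at most 3 counts of Atf3.

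**Figure D5:**
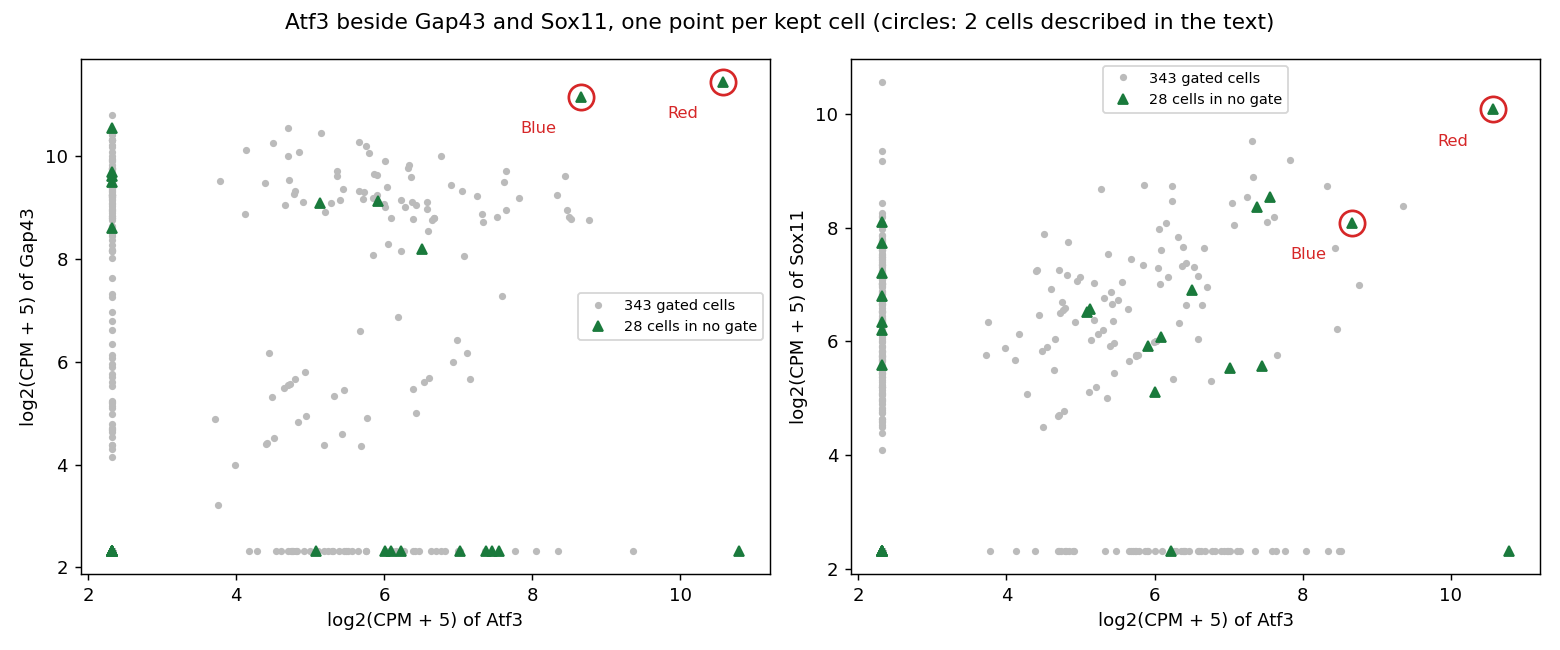
log2(CPM + 5) of Atf3 (horizontal axes) against that of Gap43 (left) and Sox11 (right), with 1 point for each of 371 kept cells; triangles are the 28 cells in no gate and circles mark the cells of Red and Blue described in the text. The 2 circled cells have the highest Gap43 of all, 2776 and 2266 CPM, together with 1523 and 400 CPM of Atf3.

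Genes related to the members were read by counts. Of these, the stathmin gene Stmn1 and both MARCKS family genes had the direction of Gap43 in the gates on Calca with Tac1 and on Mrgprd and not in all others. The MARCKS family genes encode further membrane-bound actin regulators. In cells gated by Calca with Tac1, Marcksl1 was higher than in other kept cells by 3.14 (SE 0.37, 6 of 6 mice), Marcks by 1.39 (SE 0.18, 6 of 6) and Stmn1 by 1.12 (SE 0.11, 6 of 6). In Mrgprd-gated cells these 3 genes were lower, by -2.11, -1.09 and -1.08, in 6 of 6 mice each. In Mrgpra3-gated cells, which are rich in Gap43, Marcks was lower by -2.23 (SE 0.24, adjusted p = 0.0106, 3 of 3 mice) and Marcksl1 by -2.19 (adjusted p = 0.0455). In Th-gated cells, where Gap43 was lower, Marcks was higher by 0.90 (SE 0.11) and Stmn1 by 0.36 (SE 0.084), in 2 of 2 mice each. Flrt1, a paralog of Flrt3, differed from it in the 2 gates with the most cells: it was higher in cells gated by Calca with Tac1 by 3.47 (SE 0.37, adjusted p = 2.81e-05, 6 of 6 mice) and lower in Mrgprd-gated cells by -2.76 (SE 0.24, adjusted p = 5.76e-07, 6 of 6), while Flrt3 was higher in Mrgprd-gated cells. In Sst- or Nppb-gated cells (-2.26, adjusted p = 0.00603, 5 of 5 mice) and Th-gated cells (-2.01, 2 of 2 mice) Flrt1 was lower, as Flrt3 was. Sox4, a relative of Sox11, was lower in Mrgprd-gated cells by -0.56 (SE 0.17, adjusted p = 0.0264, 6 of 6 mice), with a difference of 0.064 when log values were averaged over cells.

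Of 16 transcription factors of regeneration, 10 were tested in cells gated by Calca with Tac1, and 2 were higher and 0 lower, where 11.5% of all tested genes were called. These were Klf6, at 267 against 60.5 CPM (difference 1.96, SE 0.25, adjusted p = 0.000124, 6 of 6 mice), and Jun, the AP-1 partner, at 503 against 156 CPM (1.69, SE 0.30, adjusted p = 0.00194, 5 of 6 mice). The median difference was 0.38 for the 10 and -0.078 for all genes. In Mrgprd-gated cells 1 of 10 was higher (Ddit3, 0.77) and 2 lower (Jun, -1.69, and Klf6, -1.45), with a median of -0.17 against -0.035 for all genes, of which 22% were called. In Mrgpra3-gated cells 3 of 11 were lower (Klf6, Jun and Smad1) and 0 higher, against 3.56% of all genes called. In Sst- or Nppb-gated cells 1 of 11 was higher (Klf9, a repressor of axon growth, 0.88) and 0 lower, a share near the 11.9% of all genes. In Nefh-gated cells 2 of 12 were lower (Klf7 and Stat3) and 0 higher, against 8.79% of all genes, and in Th-gated cells 5 of 10 were lower and 0 higher, against 28.7%. The 17 immediate early and stress genes also differed by gate. In Mrgprd-gated cells 1 of 15 tested was higher and 7 lower (22% of all genes called). In cells gated by Calca with Tac1 2 of 16 were higher and 2 lower (11.5%). Between these gates 7 of 16 were higher with Calca and Tac1 and 2 lower (19.6%). Whether Jun and Klf6 differ for the same reason as these genes was not tested.

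Of 40 injury-induced or growth-promoting effector genes, 19 were tested in cells gated by Calca with Tac1, with 5 higher, among them S100a11 (3.67) and Lgals1 (2.38), and 4 lower (11.5% of all tested genes were called). Of 19 in Mrgprd-gated cells, 3 were higher, with the hyaluronan receptor gene Cd44 at 1088 against 209 CPM (2.41, 6 of 6 mice), and 8 lower, with the neurotrophin receptor gene Ngfr at 12.96 against 409 CPM (-5.29), where 22% of all genes were called. Of 20 in Sst- or Nppb-gated cells, 3 were higher and 8 lower (11.9% of all genes), and Cd44 was lower by -5.64. In Mrgpra3-gated cells 1 of 21 was higher and 3 lower (3.56% of all genes), and Gal was at 0 in 3 of 3 mice. In Nefh-gated cells 3 of 19 were higher, among them Ngfr and Hspb1, and 3 lower (8.79% of all genes), and in Th-gated cells 3 of 17 were higher and 8 lower (28.7% of all genes). Ngfr and Cd44 are also known subtype genes of uninjured DRG neurons.

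Of 32 genes of the growth cone cytoskeleton and of adhesion, 29 were tested in Sst- or Nppb-gated cells, with 11 lower and 4 higher (median -0.43 against -0.20 for all genes). Of all tested genes there 11.9% were called, 784 lower and 293 higher, so most called genes were lower in the list as in the whole table. Tmsb4x, an actin-binding peptide gene, fell there to 1484 CPM, against 3987 CPM in other kept cells (-1.41), and the adhesion gene Ncam1 to 24.9 against 317 CPM (-3.88). The counts were 7 higher and 9 lower of 29 in Mrgprd-gated cells (22% of all genes called), 7 and 6 of 28 in cells gated by Calca with Tac1 (11.5%), 7 and 4 of 28 in Nefh-gated cells (8.79%), 3 and 2 of 28 in Mrgpra3-gated cells (3.56%), and 9 and 10 of 29 in Th-gated cells (28.7%). Nrn1, which encodes the growth-promoting protein neuritin, was higher in Mrgprd-gated cells by 1.27 and lower in Sst- or Nppb-gated cells by -4.02, as Basp1 and Flrt3 were.

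The genes whose levels were most like those of 6 members were found over 25 units, each a gate in a mouse, among 6896 genes. These units share mice, depth and gate composition, so the coefficients only describe. For Gap43 they were Pcp4l1 (Pearson r 0.94), Vat1l (0.92) and the transcription factor gene Nfib (0.92), with Pcp4l1 at 1.63 CPM in Mrgprd-gated and 643 CPM in Nefh-gated cells. For Stmn4 they were the neuropeptide gene Adcyap1 (0.94), A4galt (0.94) and Smpd3 (0.93), and for Basp1 the exchange factor gene Kalrn (0.91), Rgs7 (0.88) and Mt3 (0.85). For Sox11 they were Ankrd6 (0.91), Aqp1 (0.88) and Mef2c (0.86). For Flrt3 they were Rgs7 (0.82), Atp6v1d (0.81) and Scd1 (0.78), so Rgs7 stood near both Flrt3 and Basp1, the 2 members highest in the Mrgprd gate. For Atf3 the highest was Zc3h6 (0.80), followed by Junb (0.73).

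Within gates, most coefficients between members from cell to cell were weak. Stmn4, Flrt3 and Atf3 had few counts per cell, so a weak coefficient does not show that they are unrelated. Apart from a pair that rested on 1 cell (Stmn4 with Sox11 in the Sst or Nppb gate), the coefficients over 0.6 were Gap43 with Stmn2 in 26 Nefh-gated cells (Spearman coefficient 0.85), Stmn2 with Basp1 in the same cells (0.61), and Stmn4 with Atf3 in 47 Mrgpra3-gated cells (0.66; 0.48 in Blue and 0.74 in Red). The next highest were those of Basp1 with Gap43 (0.54), Stmn4 (0.53) and Stmn2 (0.52) in 39 Th-gated cells, of which 5 passed a further gate. After these came Flrt3 with Atf3 (0.51) and Stmn4 with Basp1 (0.51) in Nefh-gated cells. Of the Nefh-gated cells 17 were of Control. Cells share their mouse and library depth, so these coefficients are descriptions.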

How the data were processed

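Single tdTomato+ cells from naive mice were sequenced by the submitters, who used STAR 2.7.3a and the mm10 assembly, per the submitters' processing notes. The deposited signal values are 1 per gene and cell, and they are read counts multiplied by a factor per cell, about which the labels say nothing. In 252 of 394 columns whole reads were recovered from the low values. In the other 142 this was not claimed. Over cells the median share of values within 0.1 of a whole count was 96.5%.

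From this signal, 26 entries that a spreadsheet had turned into dates (0.154% of the signal) and the ribosomal repeat Rn45s (mean 7.10%) were removed, and each cell was scaled to CPM. Cells under 500 genes (23 cells) were left out, and 6 labelled cells without a column were not analysed here. No doublet caller was run, and no 2 columns held identical values. The genes most like Stmn2 are not reported here. Cells in 2 gates are counted in both, and no cell was treated as a replicate. Reads of paralogs or overlapping genes could be split by the authors' counting, and 0.917% of low Basp1 values were not whole, against 0 for the other members.

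CPM was averaged per mouse over at least 3 cells of a gate and over all other kept cells of that mouse. The test was that of limma 3.58.1 under R 4.3.3, run for genes that averaged 10 CPM or more. It used log2(CPM + 5) and a term for each mouse, since both sides come from the same animals, per the labels. p-values were adjusted by the Benjamini-Hochberg method over all tested genes and called under 0.05. Exact sign-flip tests over mice gave the smallest p each design allows. Counts were also tested with edgeR 4.0.16 and DESeq2 1.42.0, on reads recovered or, where not claimed, estimated from the steps of the values and rounded.

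The members and gene lists, the gates and the tests were chosen with earlier results of these data known. In each gene list up to 3 genes past the threshold were to be named per comparison, smallest p first, and the 3 genes most like each member by Pearson r. Other genes, such as Ecel1, Gal, Npy and Scn10a in single cells, were named after their values were seen. Nothing in the labels says that cells of a mouse were split over runs, so mouse and run cannot be told apart in runs 2 and 4, which held 1 mouse each. Alternatives were another pseudocount, no filter, no replicate block, mean log values over cells, at least 2000 genes per cell, doubled gates, cells in exactly 1 gate, thinning to 5000 counts, single runs, each mouse left out and, chosen after seeing the data, cells with 1000 CPM or more of satellite glial markers left out and cells in no gate left out.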

Additional observations from a re-analysis of the deposited data

Results flagged for a closer look

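In 29 groups of 5 or 6 mice the highest or lowest mouse was compared with the rest, and 11 values stood apart. The limit used would flag about 1 in 20 groups of normally distributed values. Many of these groups are means of few counts, in some with all mice but 1 at 0, so that rate does not apply here. Several of the flagged values share a mouse and a cell, so they are not independent.

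Control2 stood high for several members, for Gap43 and Sox11 through 1 cell each and for Flrt3 only in part. Gap43 in its Mrgprd-gated cells averaged 178 CPM (9 cells) and 13.4 CPM without the highest cell. Sox11 averaged 420 CPM in its cells gated by Calca with Tac1 (4 cells; 59.1 CPM without the highest) and 138 CPM over all its kept cells (75.5 CPM without it). Flrt3 averaged 114.6 CPM in its cells gated by Calca with Tac1 (52.6 CPM without the highest, which had 2 counts, against 0 to 29.2 CPM in the other 5 mice). Over all its kept cells it averaged 63.3 CPM (52.5 CPM without that cell, against 24.5 to 35.5 CPM in the other 5 mice).

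Control1 stood high in Sst- or Nppb-gated cells for Stmn4 at 38.8 CPM and for Sox11 at 9.69 CPM, each from 1 of 4 cells, with 4 counts and 1 count, while the other 4 mice were at 0. Blue stood high for Atf3, at 94.97 CPM in Sst- or Nppb-gated cells (14 of 18 cells with a count) and 111.4 CPM in cells gated by Calca with Tac1 (24 of 33 cells). Blue was also the 1 mouse with Sprr1a, at 1.06 CPM over its kept cells from 1 count. Control stood low for Stmn2, at 2099 CPM over its 50 kept cells, of which 3 had none.

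The log2 difference of Stmn2 between Mrgprd-gated and other kept cells was -0.046 in run 1, with both mice lower, and 0.17 in runs 2 to 4, with all 4 mice higher. The difference between the runs was not tested.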

How the results depend on the processing

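The direction and call of Gap43 in the Mrgprd, Sst or Nppb, Th, Nefh and Calca with Tac1 gates against other kept cells, of Basp1 in the Mrgprd, Sst or Nppb and Th gates and of Sox11 in the Sst or Nppb gate held under every alternative run. The fit without the replicate block kept all other member calls but lost Atf3 in the Mrgprd gate (-1.30) and Stmn4 and Sox11 in the Nefh gate, and gained Gap43 in the Mrgpra3 gate (0.84). The number of members past the threshold moved as follows. For Mrgprd it was 3 after thinning, in place of 5. For Mrgpra3, in place of 0, it was 1 without the replicate block and with mean log values, and 3 with edgeR and with DESeq2. It was 6 with cells in exactly 1 gate, in run 1 only and without glia-rich cells, and 1 to 6 with a mouse left out. The fits with exactly 1 gate, in run 1 only and without Control2 held only Blue and Red, so they are not separate evidence. The fit without glia-rich cells shares cells of Blue and Red with them, so it is not separate evidence either. Calls from 2 mice, here and in run 1 for other gates, have the limit given for Th-gated cells. For Th it was 4 with DESeq2 and after thinning, in place of 7. For Calca with Tac1 it was 4 with edgeR, 1 after thinning and 5 in run 1 only, in place of 2. For Nefh it was 1 with no filter, without the replicate block, with DESeq2 and after thinning, and 1 to 2 with a mouse left out, in place of 3. For Calca with Tac1 against Mrgprd it was 2 with doubled gates, after thinning, in runs 2 to 4 and without glia-rich cells, in place of 4. For Th against Mrgprd it was 3 after thinning, in place of 5. The cause was not tested, except that thinning removes counts by construction.

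The number of all genes past the threshold ranged over the alternatives from 814 to 3134 for Mrgprd (1994 as reported), 42 to 2260 for Mrgpra3 (319), 424 to 2308 for Sst or Nppb (1077), 695 to 3353 for Th (2601), 394 to 2794 for Calca with Tac1 (1057), 39 to 1273 for Nefh (815), 581 to 3401 for Calca with Tac1 against Mrgprd (1775) and 746 to 3293 for Th against Mrgprd (2604).

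The cause of the sign changes was not tested. Gap43 in Th against Mrgprd (2.10) and Sox4 in Mrgprd (-0.56) were past the threshold as reported, and Atf3 in Calca with Tac1 passed it with the other sign in run 1 only, which held just Blue and Red. With edgeR they were Stmn4 in Mrgpra3 (0.22), Stmn2 (-0.13), Atf3 (0.73) and Basp1 (-0.070) in Calca with Tac1, Stmn2 (-0.028) and Basp1 (-0.32) in Nefh, and Stmn2 in Calca with Tac1 against Mrgprd (-0.13). With DESeq2 they were Stmn4 in Mrgpra3 (0.12), Stmn2 (-0.030) and Atf3 (0.52) in Calca with Tac1, Basp1 in Nefh (-0.29), and Stmn2 in Calca with Tac1 against Mrgprd (-0.041). With mean log values they were Sox4 in Mrgprd (0.064), Stmn4 in Mrgpra3 (0.15), Stmn2 in Sst or Nppb (0.051), Atf3 in Calca with Tac1 (0.28), Sox11 in Calca with Tac1 against Mrgprd (-0.70), and Gap43 (-0.10) and Atf3 (-0.42) in Th against Mrgprd. After thinning they were Basp1 in Nefh (-0.15), Stmn2 (-0.024) and Atf3 (-0.0031) in Calca with Tac1 against Mrgprd, and Atf3 in Th against Mrgprd (-1.81). With cells in exactly 1 gate they were Stmn2 in Sst or Nppb (0.0021) and Atf3 in Th against Mrgprd (-0.80), and with at least 2000 genes Atf3 in Calca with Tac1 (0.17) and Stmn2 against Mrgprd (-0.015). In run 1 only they were Stmn2 in Mrgprd (-0.046) and Sst or Nppb (0.043) and Atf3 in Calca with Tac1 (0.57), and in runs 2 to 4 Stmn2 in Calca with Tac1 against Mrgprd (-0.0098). Without glia-rich cells they were Atf3 in Calca with Tac1 (0.18), Sox11 in Calca with Tac1 against Mrgprd (-0.32) and Atf3 in Th against Mrgprd (-0.48), and without cells in no gate Atf3 in Calca with Tac1 (0.19). With a mouse left out the ranges that crossed 0 were -0.0032 to 0.44 for Basp1 in Mrgpra3, -0.097 to 0.0021 for Stmn2 in Sst or Nppb, -0.54 to 0.24 for Atf3 in Calca with Tac1, and, against Mrgprd, -0.022 to 0.069 for Stmn2 and -0.066 to 0.61 for Sox11 in Calca with Tac1. Gap43 in Th against Mrgprd was not fitted with cells in exactly 1 gate, where its Th levels were the lower ones in both Blue and Red.

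For Nefh, doubled gates, exactly 1 gate, run 1 only and the removal of glia-rich cells left under 2 mice, so no difference could be fitted. Nefh levels, in 1 mouse, were 580 CPM of Gap43, 94.9 of Sox11 and 567 of Basp1 with doubled gates, and 81.2 CPM of Sox11, 30.04 of Atf3 and 521 of Basp1 with exactly 1 gate. For Th no mouse could be left out. Stmn4, Flrt3 and Atf3 had few counts per cell, so their absence in a cell was not detectable at this depth, and Sprr1a could not be compared at all.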
